A study of Homo sapiens with 12 samples.

Results

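MITF, TFEB, TFE3 and TFEC are the 4 genes of the MiT/TFE family of transcription factors. They were picked by family membership out of 78930 genes in the counts, and the family was chosen because TFEC had moved in opposite directions with the 2 NPM1c constructs that were added back to these cells. All 4 passed the low-count filter that left 24064 genes for testing. TFEC passed it through its levels after degrader treatment, since it had 2 to 5 counts per library in the solvent group.

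The cells were OCI-AML3 degron cells, an acute myeloid leukaemia line with a wild-type NPM1 allele and a cytoplasmic mutant, NPM1c, that is fused to a tag. The compound dTAG-13 directs the tagged protein to the proteasome. Groups labelled dTAG mCherry, dTAG FL-NPM1c and dTAG C-body null carried a lentivirus for mCherry alone, for full-length NPM1c with mCherry or for a construct named C-body null with mCherry. They received 500 nM dTAG-13 at 48 hours after transduction, and the sort for mCherry followed after another 24 hours. The NTC DMSO group carries the same degron allele, its genotype label names no construct, and the labels do not spell out NTC. Its titles read DMSO while its treatment label reads dTAG. Comparisons with it can therefore differ in the degrader, the virus and the sort together, and these cannot be told apart. Each group had 3 libraries, and the labels do not call them separate cultures. Every p-value therefore rests on the spread between these samples, and that spread may be technical. The protocol names OCI-AML3, while the cell line label of each sample carries a running number, from OCI-AML3 to OCI-AML14. The samples were read here as 1 line, whose clonality is not stated.

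MiT/TFE proteins are basic helix-loop-helix leucine zipper factors that bind DNA as homodimers or as heterodimers with each other, at E-box and related sites. TFEB, TFE3 and MITF are known for switching on lysosomal and autophagy genes. When nutrients are plentiful, Rag GTPases bring these factors to the lysosome, where the kinase mTORC1 phosphorylates them and 14-3-3 proteins hold them in the cytosol. When mTORC1 is quiet, the phosphatase calcineurin helps release them into the nucleus. Their activity is thus set largely by protein location, which RNA counts do not measure. MITF is best known in melanocytes, mast cells and osteoclasts, and TFEC is a macrophage-restricted member.

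Libraries held 30519165 to 59925564 counts, and mitochondrial transcripts took 6.83% to 9.63% of counts. Levels are given as CPM, the counts of a gene per 1000000 counts of the effective library total. NPM1 RNA averaged 1430 CPM in NTC DMSO and 1252 in dTAG mCherry, 1651 with FL-NPM1c, and 1922 in the C-body null group, a measure of transcript that does not show protein degradation. Of all genes tested, the edgeR quasi-likelihood test with Benjamini-Hochberg adjusted p under 0.05 called 5429 in dTAG mCherry against NTC DMSO, 3735 in dTAG FL-NPM1c against dTAG mCherry, 143 in dTAG C-body null against dTAG mCherry and 2329 in dTAG FL-NPM1c against dTAG C-body null. Single libraries moved these counts. Without dTAG mCherry replicate 2 the second count was 6834 and the third 1399. Leaving out dTAG FL-NPM1c replicate 2 instead gave 1621 for the second and 1365 for the fourth. The second was also moved by leaving out dTAG FL-NPM1c replicate 1 (1834), dTAG mCherry replicate 1 (2186) or dTAG mCherry replicate 3 (1874). The fourth count was 1378 without C-body null replicate 1, 1387 without C-body null replicate 2 and 1511 without FL-NPM1c replicate 1. The third was 60 to 73 when any C-body null library or dTAG mCherry replicate 1 was dropped.

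TFEC moved most and TFE3 was the most abundant member, so 1 promoter window of each is shown, running from 250 bases before to 50 bases after a RefSeq transcription start (GRCh38.p14), 5′ to 3′ on the gene's strand. The TFEC window is chr7:116030714-116031013 on the minus strand and the TFE3 window is chrX:49043308-49043607 on the minus strand. Capitals mark AGGAAGT, the letters of an ETS-type site, or its reverse complement.
TFEC: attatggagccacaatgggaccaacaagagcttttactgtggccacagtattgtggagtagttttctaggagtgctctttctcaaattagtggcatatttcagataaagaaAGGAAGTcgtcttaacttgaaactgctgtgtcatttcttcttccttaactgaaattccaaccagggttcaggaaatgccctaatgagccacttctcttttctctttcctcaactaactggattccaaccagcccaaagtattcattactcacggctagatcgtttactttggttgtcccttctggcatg
TFE3: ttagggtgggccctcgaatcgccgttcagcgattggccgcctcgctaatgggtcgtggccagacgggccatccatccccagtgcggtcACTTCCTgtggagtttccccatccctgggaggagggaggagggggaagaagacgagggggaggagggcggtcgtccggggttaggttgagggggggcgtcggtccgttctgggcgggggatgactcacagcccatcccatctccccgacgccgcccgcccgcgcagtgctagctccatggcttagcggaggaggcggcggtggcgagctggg

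The TFEC window had 41.7% G and C and 3 CpG dinucleotides, and the TFE3 window had 68.7% and 27. Over the 35116 RefSeq promoter windows of the same length, the median was 58.7% and 14, and the quartiles of the CpG count were 4 and 28. The TFEC window thus lay below the lower quartile for CpG and the TFE3 window just under the upper one. Across all 9 windows of the 4 genes, both strands were searched for the E-box CACGTG and for CATGTG, the core of the M-box, which do not overlap with the ETS-type letters. None held either, against 7.26% and 11.1% of all windows, so these letters are not in these stretches. The ETS-type letters occurred once in each window shown and in none of the other 7, against 8.24% of all windows. The motifs were chosen with these sequences in view, and a match is not a measured site.

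TFEC RNA differed widely between the groups. TFEC (ENSG00000105967, chromosome 7, 115935148 to 116159896, minus strand, GRCh38) had 0.0992, 0.125 and 0.0528 CPM in NTC DMSO replicates 1, 2 and 3, and 0.746, 1.07 and 1.14 in dTAG mCherry. Its level was 0.436, 0.490 and 0.295 CPM with FL-NPM1c and 2.56, 2.83 and 1.86 with C-body null. Libraries of any pair of groups did not overlap, and the order from low to high was NTC DMSO, dTAG FL-NPM1c, dTAG mCherry, dTAG C-body null. Behind these levels lay 4, 5 and 2 counts in NTC DMSO, 27, 50 and 34 in dTAG mCherry, 20, 21 and 18 with FL-NPM1c and 93, 112 and 78 with C-body null.

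In dTAG mCherry cells TFEC averaged 0.985 ± 0.209 CPM (SD, n = 3), against 0.0924 ± 0.0366 in NTC DMSO. The log2 difference of TFEC was 3.36 ± 0.38 (SE). No p-value is given for it, since this comparison shares the dTAG mCherry libraries with those by which the family was chosen and TFEC passed the low-count filter through the groups where it is high. The ratio of summed counts per depth was 10.6, with an exact 95% interval of 5.69 to 21.8 that covers counting error only. With any 1 of the 6 libraries left out, the difference was 3.10 to 3.63.

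The add-back values of TFEC chose the family and are likewise a description. TFEC averaged 0.407 ± 0.10 CPM in dTAG FL-NPM1c, a log2 difference from dTAG mCherry of -1.30 ± 0.27. With C-body null it averaged 2.42 ± 0.502 CPM, a log2 difference from dTAG mCherry of 1.29 ± 0.23. Both differences are measured from the same dTAG mCherry libraries. Directly between the constructs, TFEC in dTAG FL-NPM1c stood -2.59 ± 0.25 from dTAG C-body null on the log2 scale. Neither construct brought TFEC to its NTC DMSO level, from which dTAG FL-NPM1c differed by 2.06 ± 0.42 and dTAG C-body null by 4.65 ± 0.33.

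Monocyte and macrophage markers differed between the groups as well. Summed over the 20 listed markers, their level was 568 to 603 CPM in NTC DMSO, 3297 to 3527 with FL-NPM1c, 3709 to 4112 with mCherry alone and 4894 to 5094 with C-body null, the same order of groups as for TFEC. That sum is carried by abundant markers. All 17 tested markers were higher in dTAG mCherry than in NTC DMSO (100%, against 12.9% of all genes), with a median of 3.01. Against NTC DMSO the median was 3.11 with FL-NPM1c, and for C-body null it was 3.46. Compared directly, the median of FL-NPM1c from dTAG mCherry was -0.16, with 5 of 17 markers above 0. The order of mCherry and FL-NPM1c by the median thus depends on the group they are compared with. Against dTAG mCherry, 5 of 17 were lower (29.4%, against 7.95% of all genes) and 2 higher (11.8%, against 7.58%) with FL-NPM1c. With C-body null 0 were lower (against 0.378% of all genes) and 2 higher (11.8%, against 0.216%). Between the constructs 8 were lower with FL-NPM1c (47.1%, against 4.86% of all genes) and 0 higher (against 4.82%). LYZ, the gene of lysozyme, was 3.01 ± 0.08 higher in dTAG mCherry than in NTC DMSO on the log2 scale. The part of these cell state markers in the TFEC result was not tested, and in bulk RNA fewer cells of a type and less RNA per cell cannot be told apart. C1QB was the only one of these markers listed at 0 in every library, and a gene listed at 0 need not be silent.

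**Figure D1:**
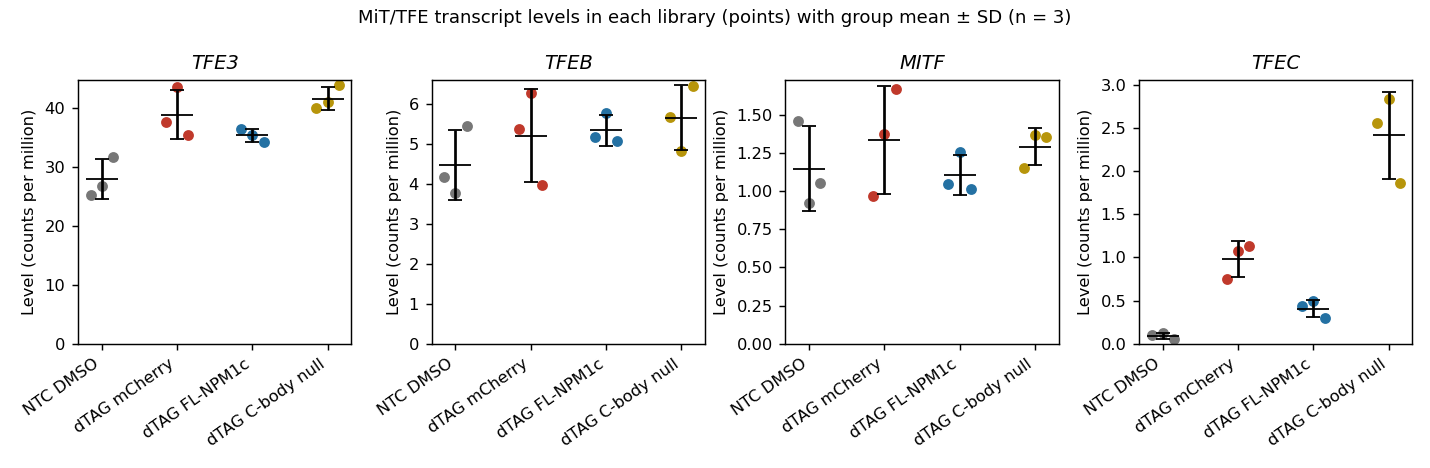
RNA level of TFE3, TFEB, MITF and TFEC in CPM (vertical axes, each starting at 0 with its own scale) in the 4 groups; points are the 3 libraries of a group, and bars show the group mean and SD. TFEC libraries of different groups do not overlap, TFE3 in NTC DMSO (25.3 to 31.8) lies below all other TFE3 libraries, and the groups overlap for TFEB and MITF.

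TFE3 was the most abundant member and was higher in dTAG mCherry than in NTC DMSO. TFE3 (ENSG00000068323, chromosome X, 49028726 to 49043486, minus strand) is broadly expressed and shares lysosomal targets with TFEB. Its level was 25.3, 26.9 and 31.8 CPM in NTC DMSO, 37.7, 43.6 and 35.5 in dTAG mCherry, 36.6, 35.5 and 34.4 with FL-NPM1c and 40.0, 41.1 and 43.9 with C-body null. Every NTC DMSO library lay below every library that received dTAG-13, and dTAG FL-NPM1c lay below dTAG C-body null without overlap.

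TFE3 was 0.48 ± 0.10 higher in dTAG mCherry than in NTC DMSO on the log2 scale (edgeR adjusted p = 0.0021), and the call held with any 1 library left out, at 0.39 to 0.58. It was 0.58 ± 0.10 higher in dTAG C-body null than in NTC DMSO (edgeR adjusted p = 0.00034). In dTAG FL-NPM1c it was 0.34 ± 0.10 higher than in NTC DMSO (edgeR adjusted p = 0.017). The last call ended without NTC DMSO replicate 1 (adjusted p = 0.096), NTC DMSO replicate 2 (0.089), dTAG FL-NPM1c replicate 1 (0.079) or dTAG FL-NPM1c replicate 2 (0.051). So the TFE3 call against NTC DMSO held with any 1 library left out for mCherry and for C-body null, but not for FL-NPM1c. The FL-NPM1c difference stayed at 0.27 to 0.44 in these fits, which have fewer libraries.

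Against dTAG mCherry, TFE3 differed by -0.14 ± 0.10 with FL-NPM1c (95% interval -0.34 to 0.07, edgeR adjusted p = 0.36). The C-body null value was 0.10 ± 0.10 from dTAG mCherry (-0.11 to 0.30, edgeR adjusted p = 0.69). Neither difference of TFE3 passed the test, and libraries of these groups overlapped in both. Between the constructs the difference of TFE3 was -0.23 ± 0.10 (95% interval -0.44 to -0.03), which missed the threshold with an edgeR adjusted p of 0.15. It passed when only these 2 groups were fitted, at -0.23 ± 0.06 and an edgeR adjusted p of 0.019. The dTAG mCherry and NTC DMSO libraries do not enter that fit.

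TFEB did not pass the test in any comparison. TFEB (ENSG00000112561, chromosome 6, 41683978 to 41736259, minus strand) is regarded as the main regulator of lysosome formation. It stood at 4.19, 3.78 and 5.47 CPM in NTC DMSO, 5.39, 6.28 and 3.98 in dTAG mCherry, 5.18, 5.78 and 5.07 with FL-NPM1c and 5.69, 4.83 and 6.46 with C-body null. The groups overlapped in every pair. The log2 difference of dTAG mCherry from NTC DMSO was 0.23 ± 0.17 (95% interval -0.13 to 0.60, edgeR adjusted p = 0.36). From dTAG mCherry, TFEB differed by 0.02 ± 0.17 with FL-NPM1c (-0.33 to 0.37) and by 0.11 ± 0.17 with C-body null (-0.25 to 0.46). The first interval includes the size of the TFE3 rise. The largest TFEB difference, 0.34 ± 0.17 for dTAG C-body null from NTC DMSO (edgeR adjusted p = 0.16), was called without NTC DMSO replicate 3, at 0.51 with an adjusted p of 0.041.

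MITF was low and did not pass the test in any comparison either. MITF (ENSG00000187098, chromosome 3, 69739435 to 69968337, plus strand) had 1.46, 0.925 and 1.06 CPM in NTC DMSO, 0.967, 1.37 and 1.67 in dTAG mCherry, 1.05, 1.26 and 1.02 with FL-NPM1c and 1.15, 1.37 and 1.36 with C-body null. These were 35 to 64 counts per library, and the groups overlapped in every pair. The log2 difference of dTAG mCherry from NTC DMSO was 0.21 ± 0.22 (95% interval -0.27 to 0.68, edgeR adjusted p = 0.56). From dTAG mCherry, MITF differed by -0.27 ± 0.22 with FL-NPM1c (-0.73 to 0.19) and by -0.04 ± 0.22 with C-body null (-0.50 to 0.43). Counts per gene do not separate the isoforms that MITF makes from its several starts.

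Of the 3 members that did not choose the family, MITF, TFEB and TFE3, 1 (TFE3) was called higher and 0 lower in dTAG mCherry against NTC DMSO, where 22.6% of genes were called, 12.9% higher and 9.69% lower. Of the same 3, edgeR called 0 of 3 in dTAG FL-NPM1c against dTAG mCherry and 0 of 3 in dTAG C-body null against dTAG mCherry, and so did DESeq2. In these comparisons 15.5% and 0.594% of all genes were called, and 0 of the 3 had an unadjusted p under 0.05. Between the constructs 9.68% of genes were called and 0 of the 3 by either tool, with 1, TFE3, at an unadjusted p under 0.05. Against NTC DMSO, TFE3 was the 1 of 3 called with each construct, and it was higher in both. There 27.9% of genes were called with FL-NPM1c (14.6% higher) and 26.6% in the C-body null group (14.1% higher).

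**Figure D2:**
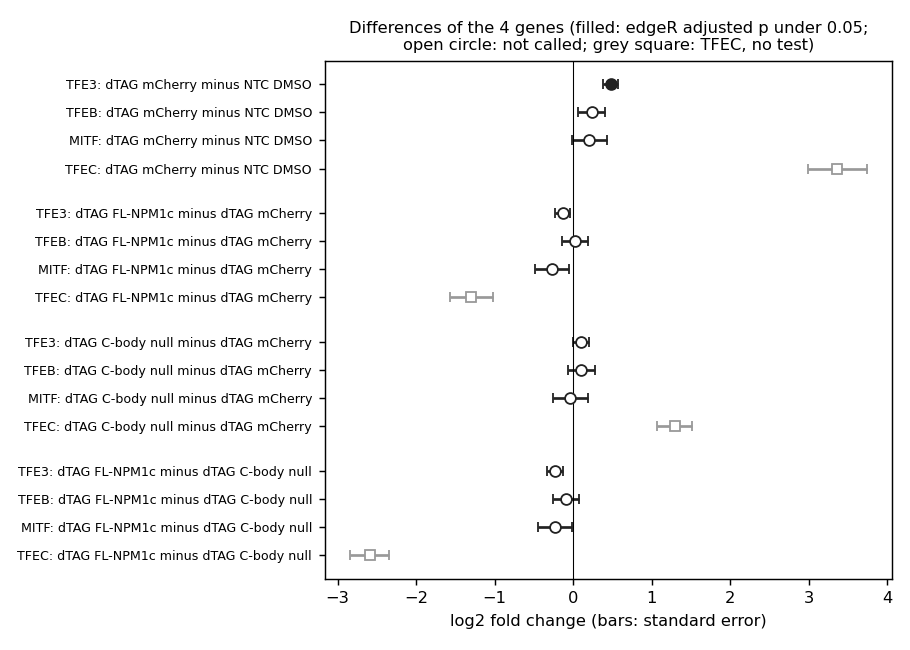
Log2 fold change of each MiT/TFE gene (horizontal axis) in 4 comparisons, with standard errors; filled points passed the edgeR test, open circles did not, and grey squares are the TFEC values, drawn with no test. TFEC lies at -1.30 with FL-NPM1c and at 1.29 with C-body null, while the other 3 genes lie near 0 in both.

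To compare the genes with each other, CPM was divided by the length of the merged exons, 7.18 kb for MITF, 5.65 kb for TFEB, 4.28 kb for TFE3 and 8.64 kb for TFEC. Summed over the family, the level per kb was 7.50 ± 0.917 in NTC DMSO, 10.3 ± 1.16 in dTAG mCherry, 9.43 ± 0.297 with FL-NPM1c and 11.2 ± 0.532 in the C-body null group (SD, n = 3). TFE3 made up 87.2%, 88.2%, 87.8% and 86.9% of it in these groups, so the family's RNA in these cells was mostly TFE3. The share of TFEB was 8.89% to 10.5% and that of MITF 1.61% to 2.17%. TFEC took 0.148%, 1.11%, 0.497% and 2.51%. The order per kb was TFE3, TFEB, MITF, TFEC in the first 3 groups, without overlap between neighbours. In dTAG C-body null TFEC, at 0.215 to 0.328 CPM per kb, stood above MITF, at 0.161 to 0.190.

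Genes with the most similar pattern over the 12 libraries were sought by the Pearson correlation of log2 CPM, among 18030 genes with a mean of at least 1 CPM. The points share libraries and depth and fall into the 4 groups, so the values describe likeness and have no test. For TFEC the 5 closest were RHOU (r = 0.98), CCR2, a monocyte chemokine receptor (0.97), BMP8B (0.97), SLC1A3, a glutamate transporter (0.97), and LRRC4 (0.97), and 316 genes had r over 0.9. CCR2 is also among the monocyte markers above. CCR2 averaged 11.1, 27.1, 16.1 and 44.0 CPM in NTC DMSO, dTAG mCherry, the FL-NPM1c group and the C-body null group, the order of groups seen for TFEC. That order follows from the choice by correlation with TFEC and is no separate support.

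For TFE3 the closest were EEPD1, TMEM127, SDC3, EMILIN2 and MLXIPL (r = 0.98 for each), and 358 genes had r over 0.9. MLXIPL is the sugar-responsive E-box factor ChREBP. For TFEB they were CRELD1 (0.97), TMEM129, PNKD and 2 genes with no symbol, with 92 genes over 0.9. No gene passed 0.9 for MITF, whose closest reached 0.83. Among the members themselves, TFE3 and TFEC had r = 0.85 and TFEB and TFE3 0.74, while MITF stayed between -0.04 and 0.40 with the others.

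**Figure D3:**
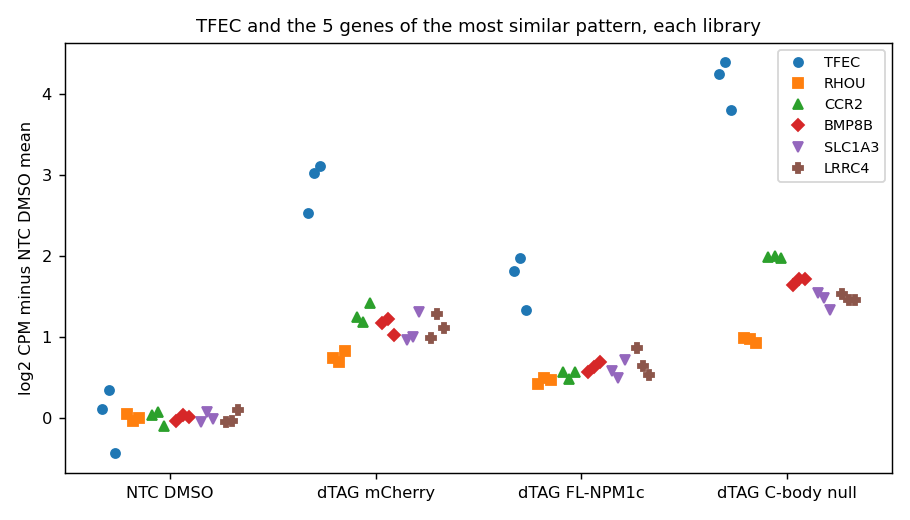
Log2 CPM relative to the NTC DMSO mean (vertical axis) of TFEC and of the 5 genes with the most similar pattern, a point per library in each of the 4 groups. All 6 genes have their lowest group in NTC DMSO and their highest in dTAG C-body null, with dTAG FL-NPM1c below dTAG mCherry. The 5 genes were picked for their likeness to TFEC in these libraries, so the shared order follows from that choice.

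Genes that control where MiT/TFE proteins sit were called in shares that differed from list to list. Of 13 Rag and LAMTOR genes, the lysosomal scaffold of mTORC1, 1 was higher (7.69%, against 12.9% of all genes) in dTAG mCherry than in NTC DMSO. This was RRAGD, a Rag GTPase and itself a known MiT/TFE target, at 6.31 ± 1.03 against 3.19 ± 0.924 CPM (0.97 ± 0.18 on the log2 scale, edgeR adjusted p = 0.00066). A second gene was called when NTC DMSO replicate 3, dTAG mCherry replicate 2 or dTAG mCherry replicate 3 was left out. LAMTOR2, the most abundant of them, was 0.41 ± 0.12 higher with FL-NPM1c than with mCherry, and LAMTOR3 and SLC38A9, an arginine sensor, were -0.38 ± 0.10 and -0.36 ± 0.10 from it. These 3 calls were kept in 2, 2 and 3 of the 6 fits with a library left out. In that comparison 7.58% of all genes were called higher and 7.95% lower.

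Among 26 genes of mTORC1 and of its TSC and GATOR regulators, 6 were higher (23.1%, against 12.9% of all genes) and 1 was lower (3.85%, against 9.69%) in dTAG mCherry than in NTC DMSO, with a median of -0.03. The largest rises were in brakes on mTORC1, namely the sestrins SESN3 (2.42 ± 0.15, from 9.71 to 52.1 CPM) and SESN1 (1.05 ± 0.10) and the mTOR-binding inhibitor DEPTOR (1.09 ± 0.13). ITFG2, a subunit of the KICSTOR complex, was -0.38 ± 0.07 from NTC DMSO. Without dTAG mCherry replicate 2 the lower count was 3, and without NTC DMSO replicate 3 or dTAG mCherry replicate 3 it was 2. MTOR itself, the most abundant gene of this list, differed by -0.20 ± 0.10 and was not called.

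With FL-NPM1c against mCherry, 2 mTORC1-related genes were higher (7.69%) and 2 lower (7.69%), near the 7.58% and 7.95% of all genes. Of these, NPRL2, a GATOR subunit, stood at 0.46 ± 0.11. Those counts ranged from 0 to 10 higher and 0 to 4 lower as libraries were left out, with the highest values without dTAG mCherry replicate 2. Between the constructs SESN3 was -0.52 ± 0.14 in dTAG FL-NPM1c from dTAG C-body null and CASTOR1, another arginine sensor, 0.94 ± 0.24. The SESN3 call was kept in 2 and the CASTOR1 call in 3 of 6 fits with a library left out. A further list held 18 genes for phosphatases including calcineurin, kinases, 14-3-3 proteins, a calcium channel and nuclear export. Of these, 0 were higher (against 12.9% of all genes) and 1 was lower (5.56%, against 9.69%) in dTAG mCherry than in NTC DMSO. That gene, the 14-3-3 member YWHAH, was -0.30 ± 0.08 from NTC DMSO. The count was 6 without NTC DMSO replicate 3, 3 without dTAG mCherry replicate 2, 2 without dTAG mCherry replicate 3 and 0 without NTC DMSO replicate 2.

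More of this list was lower where the constructs were set against NTC DMSO. With FL-NPM1c 9 of 18 were lower (50%, against 13.3% of all genes) and 1 was higher (5.56%, against 14.6%), with a median of -0.26. YWHAZ, the most abundant 14-3-3 gene of the list, was -0.43 ± 0.10 from NTC DMSO, and the calcium channel MCOLN1 was 0.50 ± 0.14 higher. With C-body null 8 of 18 were lower (44.4%, against 12.4% of all genes) and 0 higher (against 14.1%), with a median of -0.18. The calcineurin subunits PPP3CA and PPP3R1 were -0.45 ± 0.11 and -0.45 ± 0.10 from NTC DMSO there. Single libraries decided these counts. The lower count with FL-NPM1c was 1 and 3 without NTC DMSO replicates 1 and 2, and 4 and 2 without dTAG FL-NPM1c replicates 1 and 2. The MCOLN1 call ended without any of these 4 libraries. The lower count with C-body null was 4 without NTC DMSO replicate 1, 4 without NTC DMSO replicate 2 and 5 without C-body null replicate 3.

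Lysosomal hydrolases were the target group with the most calls. Of 38 tested hydrolases and their activators, 27 were higher and 0 lower in dTAG mCherry than in NTC DMSO, which is 71.1% against 12.9% of all genes called higher. The median log2 difference was 0.44, against -0.0016 for all genes. With a library left out the higher count ranged from 22 to 28, and 1 was lower without dTAG mCherry replicate 2. FUCA1, the lysosomal fucosidase, rose from 17.9 ± 1.28 to 144 ± 26.7 CPM (3.01 ± 0.17, edgeR adjusted p = 2.3e-09). GRN, the gene of progranulin, rose from 139 ± 19.6 to 347 ± 82.8 CPM (1.32 ± 0.14), and the cathepsin CTSH rose by 1.15 ± 0.12. CTSZ, the most abundant, was among the 11 not called. All 17 tested monocyte and macrophage markers were higher in the same comparison, with a median of 3.01, and their part in the hydrolase result and in those of the other lists was not tested.

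With FL-NPM1c against mCherry, 11 hydrolase genes were lower (28.9%, against 7.95% of all genes) and 3 were higher (7.89%, against 7.58%). The median was -0.05, against -0.0019 for all genes, and 24 were not called. FUCA1 fell by 0.67 ± 0.16, the sulfatase IDS by 0.66 ± 0.10 and the cathepsin CTSS by 0.53 ± 0.09. CTSF, a cathepsin, rose by 1.73 ± 0.23 and the sulfamidase SGSH by 0.64 ± 0.14. Without dTAG FL-NPM1c replicate 2, 7 were lower and the FUCA1 call ended. Without dTAG mCherry replicate 2, 5 were higher.

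With C-body null in place of mCherry, edgeR called 0 of 38 hydrolase genes, where 0.594% of all genes were called. DESeq2, which called 371 of all genes, called 1 higher, and 4 had an unadjusted p under 0.05. By edgeR 1 higher and 2 lower were called when dTAG mCherry replicate 2 was left out, where 1399 of all genes were called. The median log2 difference of the hydrolases was 0.02, against -0.013 for all genes. Between the constructs, 8 were lower with FL-NPM1c (21.1%, against 4.86% of all genes) and 2 higher (5.26%, against 4.82%). IDS, the lipase LIPA and FUCA1 were lower by -0.60 ± 0.10, -0.58 ± 0.11 and -0.52 ± 0.16, the last kept in 1 of 6 fits with a library left out. Without dTAG FL-NPM1c replicate 2 the lower count was 5, and with only the 2 groups fitted it was 13.

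**Figure D4:**
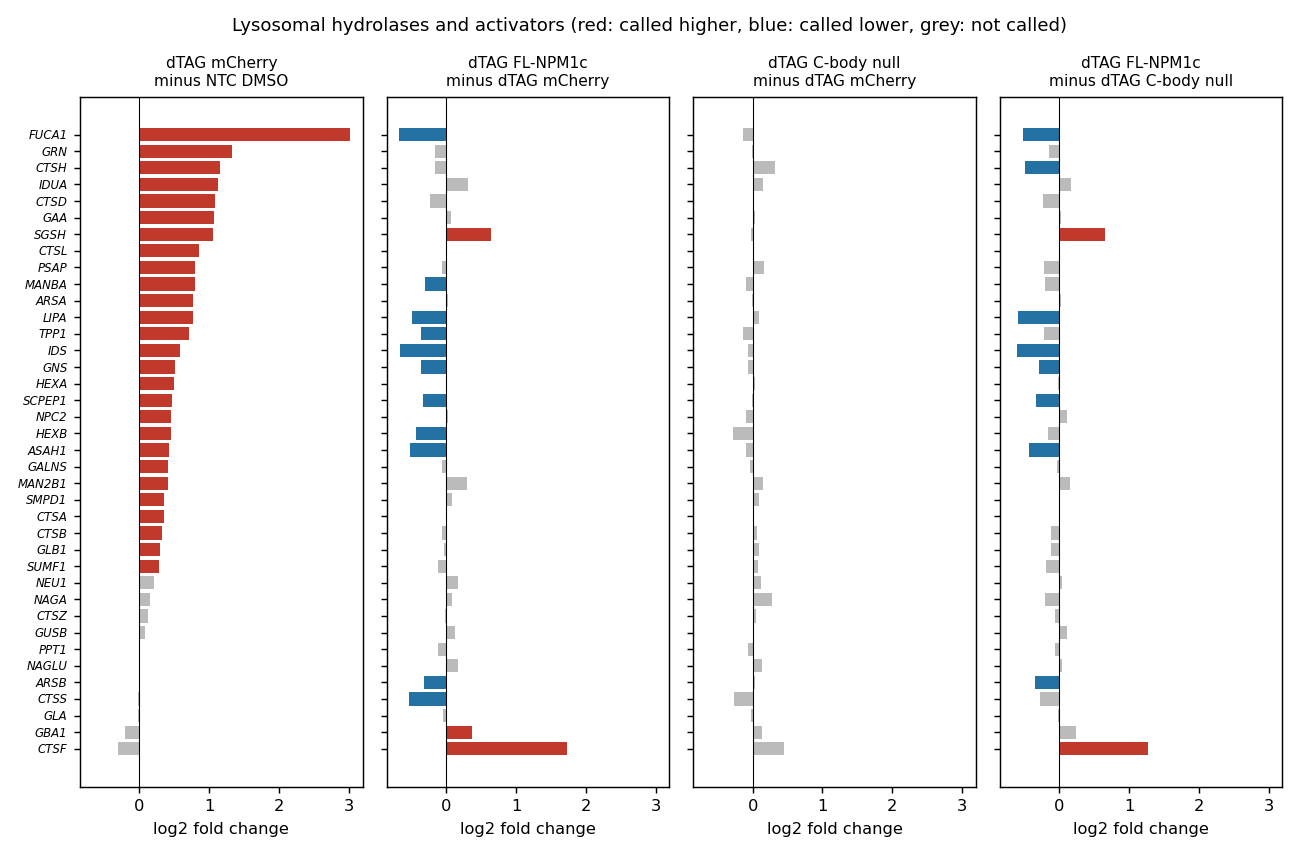
Log2 fold change (horizontal axes) of the 38 tested lysosomal hydrolases and activators in 4 comparisons, ordered by the first; red bars were called higher, blue bars lower and grey bars were not called. In the first panel 27 bars are red and none is blue, in the second 11 are blue, in the third all are grey, and in the fourth 8 are blue.

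Subunits of the V-ATPase, the pump that acidifies lysosomes, showed fewer calls. Of 18, 4 were higher (22.2%, against 12.9% of all genes) and 1 was lower (5.56%, against 9.69%) in dTAG mCherry than in NTC DMSO. ATP6V0D2, a subunit abundant in osteoclasts and macrophages, rose from 0.127 to 2.36 CPM (4.17 ± 0.37), and ATP6V0A1 rose by 0.87 ± 0.08. The higher count was 2 and the lower count 0 without NTC DMSO replicate 2, NTC DMSO replicate 3 or dTAG mCherry replicate 1. With FL-NPM1c against mCherry 1 subunit was higher (5.56%, against 7.58% of all genes) and 3 were lower (16.7%, against 7.95%). Those counts ranged from 0 to 4 higher and 2 to 6 lower as libraries were left out. With FL-NPM1c ATP6V0A1 fell by 0.53 ± 0.08 from dTAG mCherry, and it was -0.62 ± 0.08 from dTAG C-body null. ATP6V0D2 averaged 2.90 CPM with FL-NPM1c and 2.71 in the C-body null group, and was not called in either against mCherry.

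Of 20 lysosomal membrane proteins, 4 were higher (20%, against 12.9% of all genes) and 0 lower (against 9.69%) in dTAG mCherry than in NTC DMSO. CD68, a macrophage lysosomal protein that is also on the monocyte list, was 0.53 ± 0.10 higher, and SLC17A5, the sialic acid exporter, also 0.53 ± 0.09 higher. LAMP2, the most abundant, differed by -0.10 ± 0.10 and was not called. With FL-NPM1c, 4 were lower than with mCherry (20%, against 7.95% of all genes), among them SLC17A5 at -0.41 ± 0.09. SLC36A1, an amino acid transporter, was also -0.41 ± 0.09 from mCherry, and its call ended without dTAG FL-NPM1c replicate 2. That lower count was 2 without dTAG FL-NPM1c replicate 1 or dTAG mCherry replicate 3, 1 without dTAG FL-NPM1c replicate 2, but 7 without dTAG mCherry replicate 2.

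Of 26 autophagy genes, 5 were higher (19.2%, against 12.9% of all genes) and 1 lower (3.85%, against 9.69%) in dTAG mCherry than in NTC DMSO. GABARAPL1, an ATG8 family protein of autophagosomes, rose by 1.05 ± 0.10 and WIPI1, a phosphoinositide-binding autophagy protein, by 0.90 ± 0.10, while the mitophagy receptor BNIP3 fell by 0.32 ± 0.08. The lower count was 0 without NTC DMSO replicate 2 or dTAG mCherry replicate 1 and 4 without dTAG mCherry replicate 2. With FL-NPM1c against mCherry 4 autophagy genes were higher (15.4%, against 7.58%) and 3 lower (11.5%, against 7.95%), of which VPS8, a vesicle tethering factor, fell by 0.53 ± 0.09. The higher count was 0 without dTAG FL-NPM1c replicate 1, dTAG FL-NPM1c replicate 2 or dTAG mCherry replicate 3, and 1 without dTAG mCherry replicate 1. The lower count was 1 without dTAG FL-NPM1c replicate 2, dTAG FL-NPM1c replicate 3 or dTAG mCherry replicate 3.

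Among 17 tested targets outside the lysosome core, 8 were higher (47.1%, against 12.9% of all genes) and 2 lower (11.8%, against 9.69%) in dTAG mCherry than in NTC DMSO. GDF15, a stress-induced cytokine, rose by 3.48 ± 0.22, the cell cycle inhibitor CDKN1A by 2.83 ± 0.09 and BCL2A1, a survival gene, by 2.31 ± 0.19. CDK2, a kinase of the cell cycle that MITF regulates in melanocytes, fell by 0.66 ± 0.08. The lower count was 1 without dTAG mCherry replicate 1. BCL2A1 was -1.51 ± 0.17 with FL-NPM1c from mCherry and -1.23 ± 0.17 from C-body null, lower in both as TFEC was. GDF15 was higher in both, at 0.73 ± 0.16 and 0.77 ± 0.16 in the same comparisons.

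Of 19 other factors that bind E-boxes, 3 were higher (15.8%) and 2 lower (10.5%) in dTAG mCherry than in NTC DMSO, near the 12.9% and 9.69% of all genes. MLXIPL rose by 0.95 ± 0.16 and the MYC antagonist MXD4 by 0.80 ± 0.14, while the lipid regulator SREBF1 fell by 0.78 ± 0.15. MYC was 0.38 ± 0.07 higher with FL-NPM1c than with mCherry, 1 of 4 higher (21.1%, against 7.58% of all genes) beside 1 lower (5.26%, against 7.95%) in that comparison. Without dTAG mCherry replicate 2 the higher count was 9 and the lower 2. It was 1 to 2 without any other of the 5 libraries, and the lower count was 0 without dTAG FL-NPM1c replicate 2 or dTAG mCherry replicate 3.

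In dTAG C-body null against dTAG mCherry, where 0.594% of all genes were called, edgeR called 0 genes of these 9 lists, a count near that background for lists of this size. Unadjusted p-values under 0.05 were held by 2 Rag and LAMTOR genes, 3 mTORC1 genes, 4 of the phosphatase and 14-3-3 list, 0 V-ATPase subunits, 4 hydrolases, 2 membrane proteins, 3 autophagy genes, 2 other targets and 7 E-box factors. The share of all genes with such a p-value is not given here, so these counts cannot be set against a background. DESeq2, which called 371 of all genes, called 1 higher in each of hydrolases, other targets and E-box factors and 0 in the other lists. Without dTAG mCherry replicate 2 edgeR called 1399 of all genes. Among them 2 mTORC1 genes and 2 E-box factors were higher, and 2 phosphatase list genes, 1 V-ATPase subunit and 1 autophagy gene lower.

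**Figure D5:**
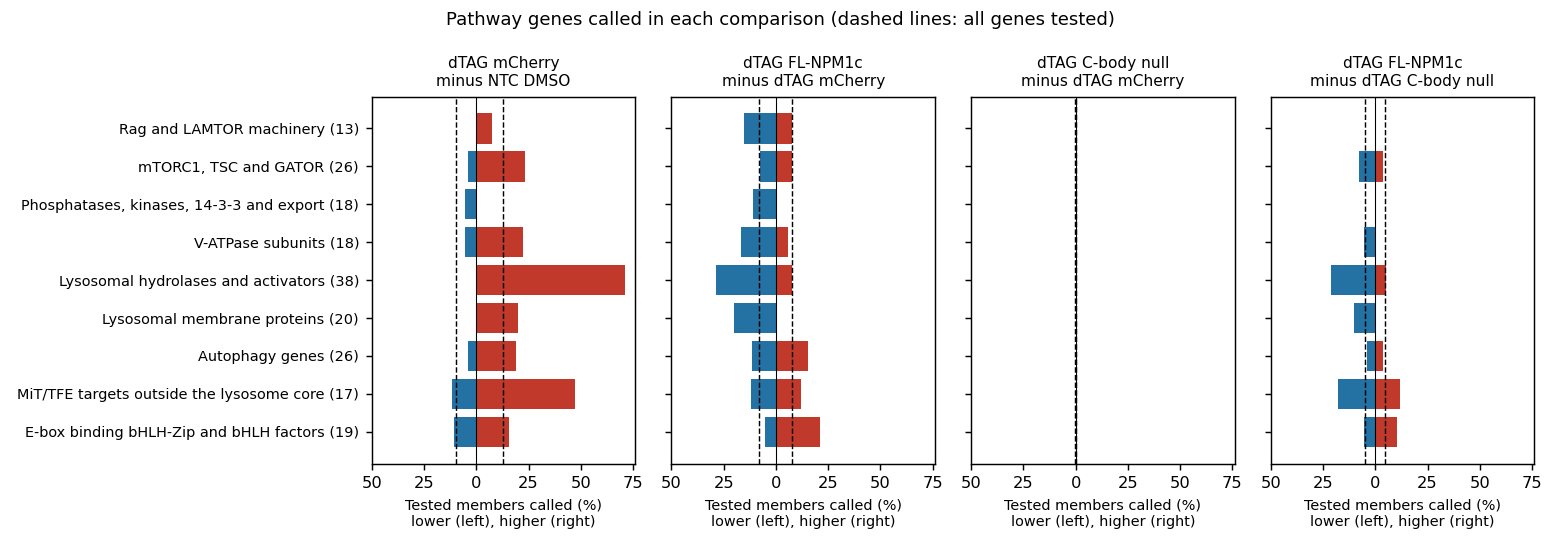
Share of tested genes called lower (blue, to the left) and higher (red, to the right) in 9 lists of regulators, targets and related factors, in percent, for 4 comparisons; numbers in brackets are the genes tested and dashed lines the shares over all genes. Hydrolases reach 71.1% higher in dTAG mCherry against NTC DMSO, and the C-body null panel has no bars.

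Markers of the other cell types in which MITF acts were low for melanocytes and mast cells and partly present for osteoclasts. Of 8 melanocyte markers 3 were tested, and TYR, the tyrosinase gene and a classical MITF target, was listed at 0 in every library. PMEL, a melanosome protein, was 9.83 CPM in dTAG mCherry against 16.3 in NTC DMSO, lower by -0.72 ± 0.12. Of 8 mast cell markers 2 were tested, and KIT and CPA3 were listed at 0. Summed over the lists, melanocyte markers had 10.3 to 21.0 CPM and mast cell markers 3.31 to 6.37. Osteoclast markers summed to 32.2 to 34.0 CPM in NTC DMSO and 46.5 to 55.8 in the other groups. Of 11 osteoclast markers 8 were tested. In dTAG mCherry against NTC DMSO 5 were higher (62.5%, against 12.9% of all genes) and 1 lower (12.5%, against 9.69%). The higher ones included MMP9 (2.82 ± 0.29) and ATP6V0D2, while CALCR, the calcitonin receptor, was listed at 0. All 8 myeloid blast markers were tested. Against NTC DMSO 5 were higher with mCherry (62.5%, against 12.9% of all genes), 4 with FL-NPM1c (50%, against 14.6%) and 7 with C-body null (87.5%, against 14.1%). In each of these comparisons 0 were lower, against 9.69%, 13.3% and 12.4% of all genes. CD3D, CD3E, CD3G and CD2 of the lymphoid list, HBB of the erythroid list, and EPCAM, KRT19, CDH1 and COL3A1 of the epithelial and fibroblast list were listed at 0. COL1A2, a collagen gene and the only tested marker of the last list, had 0.540 CPM in NTC DMSO, 0.0784 with mCherry, 1.36 with FL-NPM1c and 0.207 in the C-body null group.

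Genes within 500 kb of each member were read for shared movement. Around TFEC 16 genes are annotated and 0 passed the low-count filter, so TFEC was the only one tested in its neighbourhood. Around MITF 10 are annotated and 1 was tested, the long noncoding RNA SAMMSON, which lies 31.2 kb away on the same strand. SAMMSON averaged 1.27 ± 0.336 CPM with FL-NPM1c, 0.663 ± 0.195 with mCherry and 0.526 ± 0.195 with C-body null. It was 1.28 ± 0.29 higher with FL-NPM1c than with C-body null (edgeR adjusted p = 0.0096), a call that ended without dTAG C-body null replicate 3, and 0.90 ± 0.28 higher than with mCherry (adjusted p = 0.042), kept in 2 of 6 fits with a library left out. MITF itself differed by -0.23 ± 0.22 between the constructs.

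Near TFEB 17 of 43 annotated genes were tested. TREM1, a receptor of monocytes and neutrophils 397 kb away, was 2.46 ± 0.20 higher in dTAG mCherry than in NTC DMSO. TREM1 was -1.46 ± 0.17 with FL-NPM1c from mCherry and -1.49 ± 0.17 from C-body null. FOXP4, a forkhead factor 81.6 kb away, was 0.74 ± 0.14 higher with FL-NPM1c than with C-body null. Near TFE3 31 of 54 were tested, and WDR45, an autophagy gene 28.0 kb away, was 0.51 ± 0.12 higher with FL-NPM1c than with mCherry, a call that ended without dTAG FL-NPM1c replicate 1. OTUD5, a deubiquitinase, was 0.38 ± 0.08 higher in that comparison. TFEB and TFE3 were not called in it.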

How the data were processed

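The authors deposited raw counts per gene as 1 table. The submitters' processing notes list DESeq2, featureCounts and STAR, with no roles given, and the build hg38. Annotation release and strand setting were not given in the sources used here for these files, and counts of antisense or overlapping genes are uncertain; no tested gene overlaps a MiT/TFE gene. Of 78936 lines, 6 broken lines of 2 genes were left out. Columns were matched to samples by library number, and coordinates and exon lengths come from GENCODE 29.

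The test was run in edgeR 4.0.16 under R 4.3.3 (filterByExpr by group, TMM factors from 0.975 to 1.02, 1 robust quasi-likelihood fit of 12 libraries, 6 contrasts). Standard errors were derived from F and the log2 fold change, and CPM uses TMM-scaled totals. Counts were also simulated for the 12 libraries from 1 mean per gene, with few genes changed between dTAG mCherry and NTC DMSO. With 23641 genes tested, recovery was 29 of 67 at a 1.5-fold change, 49 of 67 at 2-fold and 61 of 66 at 4-fold. False calls numbered 6 of 145. In the data 5429 genes were called in that comparison, so recovery in the data can differ from these values. Pairs of libraries within groups differed by more than sampling noise. Members, gene lists and tests were chosen with earlier results of these data known. TFEC, whose levels chose the family, is given with no test; MCOLN1, PPP3CA and PPP3R1 were named after their values were seen. Named list genes are the called members with the largest changes (up to 3 per direction and comparison) and the most abundant member of each list. Likewise named are the 5 genes most correlated with each MiT/TFE gene, up to 3 called neighbours, and NPM1. ATP6V0D2 in the add-back comparisons was singled out after its values were seen. Tried besides were DESeq2 1.42.0, RLE factors, plain library totals, other low-count filters, a fit of only the 2 groups, a replicate block and leaving out each library. Python 3.11.15 was used for tables and figures.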

Additional observations from a re-analysis of the deposited data

How the results depend on the processing

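Over the alternatives that kept all libraries, MITF, TFEB and TFE3 kept direction and side of the threshold in 125 of 126 results. The exception was TFE3 between the constructs, -0.23 when only the 2 groups were fitted. TFEC, given with no test, kept its direction in 42 of 42. This is no support, since the family was chosen by the directions of TFEC with the add-backs. Scaling moved the median of all genes by at most 0.05 on the log2 scale. The number of genes called in dTAG mCherry against NTC DMSO (5429) was 3402 with only the 2 groups. In dTAG C-body null against dTAG mCherry (143) it was 368 with no filter, 371 with DESeq2, 63 with only the 2 groups and 86 with the replicate block. Between the constructs (2329) it was 4410 with only the 2 groups.

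The replicate numbers do not pair the samples: 2 of 18 same-numbered pairs correlated over 0.1 (range -0.31 to 0.16). With the replicate block no MiT/TFE result changed its call or direction.

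With 1 library left out, 95 of 108 results of MITF, TFEB and TFE3 kept direction and side. Uncalled values changed sign in 8. TFEC kept its direction in 36 of 36, which is likewise no support. TFEB with FL-NPM1c against mCherry ranged from -0.13 to 0.18 (-0.037 without dTAG FL-NPM1c replicate 2). With C-body null against mCherry TFEB ranged from -0.041 to 0.27 (-0.0025 without dTAG C-body null replicate 3 and -0.041 without dTAG mCherry replicate 3) and MITF from -0.22 to 0.14 (0.037 without dTAG C-body null replicate 1). MITF with FL-NPM1c against NTC DMSO ranged from -0.23 to 0.15 (0.00047 without dTAG FL-NPM1c replicate 3). TFE3 in that comparison ranged from 0.27 to 0.44, and TFEB with C-body null against NTC DMSO from 0.23 to 0.51. Called genes ranged from 1621 to 6834 (FL-NPM1c against mCherry), 60 to 1399 (C-body null against mCherry), 1365 to 2148 (between the constructs) and 4190 to 7807 (FL-NPM1c against NTC DMSO). Depth limits TFEC in NTC DMSO, with 11 counts in all.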
